A study of Cavia porcellus with 72 samples.

Results

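Glucocorticoid target genes are genes whose transcription rises in many tissues when the glucocorticoid receptor binds its hormone. The genes described here are 10 that are widely used as a readout of that response: FKBP5, SGK1, TSC22D3, ZBTB16, KLF9, DUSP1, CDKN1A, ERRFI1, DDIT4 and MT2A. They were chosen by symbol, ignoring letter case, and 8 of the 10 had a row in each of the 3 hippocampal count tables, out of 11446 genes that the tables share. SGK1, a kinase, and MT2A, a metallothionein, had no such row and were not analysed here. All 8 remaining genes passed the filter on low counts in each generation.

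Unbound glucocorticoid receptor (NR3C1) waits in the cytoplasm in a complex with heat shock proteins and co-chaperones. Once it has bound cortisol or a synthetic steroid it enters the nucleus, where it binds response elements in the DNA and recruits coactivators. In the hippocampus it works beside the mineralocorticoid receptor (NR3C2), which binds the same hormone with higher affinity. Several of its targets feed back on signalling: FKBP5 lowers the hormone affinity of the receptor, DUSP1 switches off MAP kinases, and TSC22D3 restrains inflammatory transcription.

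The libraries came from the right hippocampus of juvenile female guinea pigs of the Dunkin-Hartley strain, killed in a basal, unstressed state on postnatal day 40. Pregnant F0 females had received repeated courses of betamethasone, a synthetic glucocorticoid (sGC), or saline (control). Only the F1 animals were exposed as fetuses. The F2 and F3 animals descend from them through males, the F1 and F2 sires having been mated with untreated females, so that no F2 or F3 pregnancy was treated. RNA-seq covered 6 control and 5 sGC animals in F1, 6 and 6 in F2, and 6 and 7 in F3, each from a different mother. The question put to these genes was whether their basal hippocampal mRNA differs in animals whose mother, grandmother or great-grandmother carried an sGC-treated pregnancy.

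Reads counted on genes ranged from 13507449 to 19767033 per library over the 36 libraries. FKBP5, CDKN1A and DUSP1 rested on the fewest reads, 122 to 290, 107 to 330 and 170 to 421 per library, whereas KLF9 had 1705 to 2756. Of 12 listed hippocampal neuron markers 9 were tested, and their summed level was 964 to 1140 CPM (reads per 1e+06 reads counted, with TMM-scaled library sizes) over the libraries. PROX1, the dentate granule cell factor, had 85.3 to 143.9 CPM. Markers of neighbouring thalamus and striatum, of which 6 of 8 were tested, were present too, with a summed level of 95.3 to 135 CPM. TTR, a choroid plexus gene listed in the F2 table, ran from 0.942 to 658 CPM among the F2 libraries and was both low and high in each treatment group. The 5 sGC libraries that are replicates 4 and 5 of F1, 6 of F2, and 5 and 6 of F3 carry the numbers 32 to 36, outside the number run of their generation, and no control library does. In whole tissue, fewer cells of a type and less RNA per cell cannot be told apart.

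None of the 8 genes differed between sGC and control animals in any generation at an adjusted p below 0.05 in edgeR's quasi-likelihood test. In F1 that was 0 of 8 genes against 2.08% of all 11377 genes tested, in F2 0 of 8 against 0% of 11414, and in F3 0 of 8 against 5.04% of 11359. At an unadjusted p below 0.05, 3 of the 8 genes differed in F1 (ZBTB16, DUSP1 and DDIT4), where 19.6% of all genes did, and 0 of 8 in F2 and in F3, where 6.64% and 21.1% did. With edgeR's likelihood ratio test and with DESeq2, 1 of the 8 was called in F1, ZBTB16 in both, and 0 in F2 and F3, where these tools called 6 and 12 genes of all in F2. The median log2 fold change of the 8 genes was -0.024 in F1, -8.6e-05 in F2 and 0.0038 in F3, beside -0.0055, -0.00041 and 0.0048 over all genes tested.

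**Figure D1:**
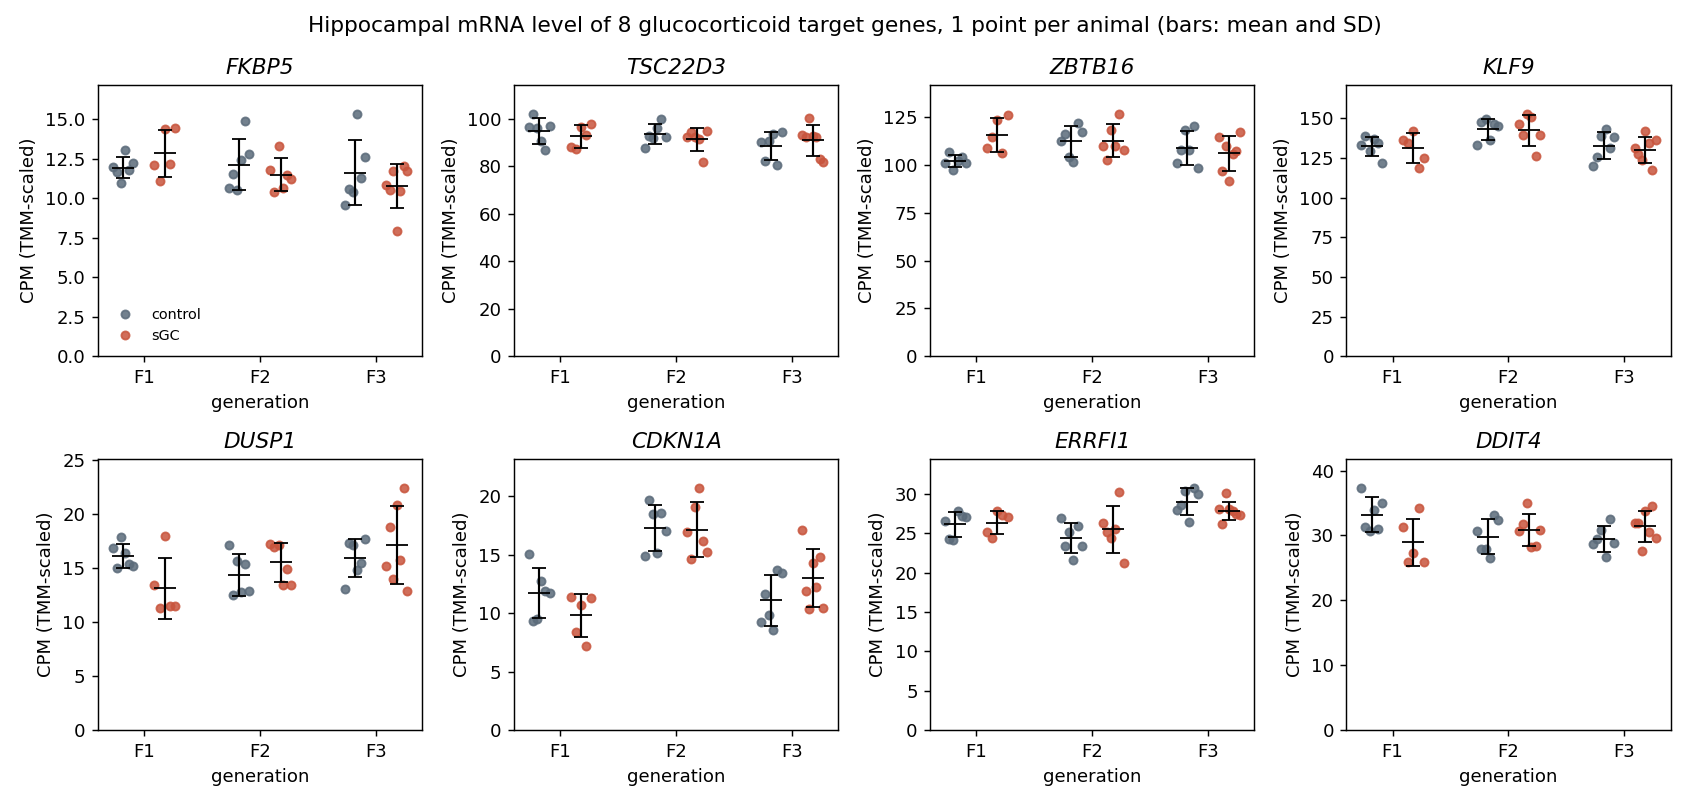
Level of each of the 8 genes in CPM (y axis, from 0) in control (grey) and sGC (red) animals of F1, F2 and F3 (x axis), with 1 point per animal and bars for the mean and SD. The groups overlap in every panel, and CDKN1A sits higher in both F2 groups than in the F1 and F3 groups.

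FKBP5 encodes the co-chaperone that closes a feedback loop on the receptor. Its F1 control animals ranged from 10.9 to 13.02 CPM (median 11.9), and the 5 sGC animals had 12.1, 11.1, 14.4, 12.2 and 14.4 CPM. Both of the higher sGC values lay above every control, and the remaining 3 lay among them. The means were 11.9 ± 0.684 (SD, n = 6) in control and 12.8 ± 1.48 CPM (SD, n = 5) in sGC animals. This is a log2 fold change of 0.11 (95% interval -0.07 to 0.28, adjusted p = 0.483, edgeR). In F2, control animals spread from 10.5 to 14.9 CPM (median 11.99) and sGC animals from 10.4 to 13.3 (median 11.3), which differed by -0.08 on the log2 scale (-0.26 to 0.11). F3 control animals covered 9.58 to 15.3 CPM (median 10.9) and sGC animals 7.95 to 12.04 (median 10.8), with a log2 fold change of -0.11 (-0.35 to 0.12). In F2 and F3 the groups overlapped, with 1 sGC animal in each below every control and 0 above. The F3 difference rested in large part on single animals, being -0.0149 without control replicate 4, the highest animal, and -0.0548 without sGC replicate 4, the lowest.

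TSC22D3 encodes GILZ, a leucine zipper protein that carries part of the anti-inflammatory action of glucocorticoids. Its coefficient of variation lay between 4.47% and 7.10% within the 6 groups. F1 animals held 86.7 to 102.02 CPM in control (median 96.4) and 88.3, 87.1, 96.6, 93.2 and 97.9 CPM after sGC, all within the control range. The F2 ranges were 87.7 to 99.96 CPM (median 92.5) and 82.0 to 94.99 CPM (median 92.4), and the F3 ranges 80.4 to 94.5 (median 90.4) and 81.7 to 101 (median 92.5). The log2 fold changes were -0.03, -0.03 and 0.04, and the 3 95% intervals together ran from -0.14 to 0.14, so that larger changes in either direction lay outside them.

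ZBTB16 encodes PLZF, a zinc finger transcription factor that is among the most strongly glucocorticoid-induced genes in several cell types. In F1 it came closest to the threshold of the 8 genes. Control animals held 97.2 to 106.3 CPM (median 101.4), and the 5 sGC animals 108.4, 114.6, 123.04, 105.9 and 125.8 CPM. Of the sGC animals 4 of 5 lay above every control and 5 of 5 above the control mean. The means were 101.8 ± 3.09 (SD, n = 6) in control and 115.5 ± 8.76 CPM (SD, n = 5) in sGC animals. The log2 fold change was 0.18 (SE 0.0477, 95% interval 0.08 to 0.29, adjusted p = 0.0662, edgeR). An exact permutation test of the mean log2 CPM over the 462 splits gave a two-sided p of 0.00433, unadjusted, as 1 of 24 such tests over genes and generations. Without the libraries numbered 32 to 36 the log2 fold change was 0.18 (adjusted p = 0.0682, edgeR), and over the alternatives run the adjusted p lay between 0.0107 with DESeq2 and 0.135 when the replicate number entered as a block. It was below 0.05 with the likelihood ratio test (0.0221), with DESeq2, without sGC replicate 1 (0.0447) and without sGC replicate 4 (0.0228).

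Markers of other cell types were read beside these F1 values. Over all genes tested in F1, 2.08% passed in edgeR and 19.6% had an unadjusted p below 0.05. Of the meningeal fibroblast markers 9 of 9 tested were lower in F1 sGC animals, 8 of them at an unadjusted p below 0.05. LUM and DCN had an adjusted p below 0.05 in edgeR. The summed level of the 9 markers was 99.2 to 262 CPM in control and 68.1 to 132 in sGC animals. All 9 astrocyte markers were higher in F1 sGC animals, 0 of them called by edgeR and 5 at an unadjusted p below 0.05. Their summed level was 8382.7 to 10814.3 CPM in control animals (median 9382.4). In sGC animals it reached from 9556 to 15101.5 CPM, with a median of 10541.6 that lay within the control range. Between animals, after the group means had been removed, ZBTB16 had Pearson's r of -0.25 with the mean of the meningeal markers (Spearman's rho = -0.29, permutation p = 0.162, adjusted 0.462, r without the 2 farthest animals -0.28). With the astrocyte markers r was -0.15 (rho = -0.04, permutation p = 0.422, adjusted 0.750, r without the 2 farthest animals -0.10). Its smallest p over these lists was with markers of neighbouring thalamus and striatum (r = -0.35, permutation p = 0.0305, adjusted 0.204, r = -0.20 within F1). With hippocampal neuron markers r was 0.34 (permutation p = 0.0562) and with neuron markers 0.32 (permutation p = 0.0600), both adjusted 0.282. Within F1 these were 0.31 and 0.51. The part of any of these markers in the F1 values was not tested otherwise.

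In the later generations the ZBTB16 levels of the groups overlapped, with 1 of 6 F2 sGC animals above every control and 2 of 7 F3 sGC animals below every control. F2 animals held 101 to 122 CPM in control (median 114) and 103 to 126 after sGC (median 110), a log2 fold change of 0.0052 (95% interval -0.11 to 0.12). F3 animals held 98.0 to 120 CPM (median 108) and 91.2 to 117 (median 107), a log2 fold change of -0.04 (-0.16 to 0.09).

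KLF9 encodes a Krüppel-like factor that is induced by glucocorticoids and by thyroid hormone in neurons. Its F1 levels were 122 to 139 CPM in control animals (median 134) and 136.3, 134.5, 141.6, 118.4 and 124.6 CPM in sGC animals, which reached both above and below the control range. F2 control animals ranged from 133 to 149 CPM (median 145.7) and sGC animals from 126 to 153 (median 142.95), and F3 animals from 120 to 143.06 (median 134) and 117 to 142 (median 131). The log2 fold changes were -0.01, -0.0053 and -0.03, with 95% intervals that together ran from -0.13 to 0.09. The sign was not steady, since the F1 value was 0.0561 and the F2 value 0.0013 without the libraries numbered 32 to 36.

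DUSP1 encodes a phosphatase that inactivates p38, JNK and ERK kinases, and it is induced by neuronal activity and growth factors as well as by glucocorticoids. F1 control animals had 14.98 to 17.9 CPM (median 15.9). The 5 sGC animals had 13.4, 11.3, 17.97, 11.5 and 11.5 CPM, so that 4 lay below every control and 1 above all of them. The means were 16.1 ± 1.14 CPM (SD, n = 6) and 13.1 ± 2.83 CPM (SD, n = 5), which gave a log2 fold change of -0.29 (95% interval -0.53 to -0.05, adjusted p = 0.1804, edgeR). The value depended on few animals. Without sGC replicate 3, the high one, it was -0.43 with an adjusted p of 0.0277 in edgeR. Without the libraries numbered 32 to 36, in F1 the sGC replicates 4 and 5, it was -0.18 with an adjusted p of 0.465. In F2 the ranges were 12.5 to 17.1 CPM (median 14.1) and 13.4 to 17.2 (median 15.9), a log2 fold change of 0.11 (-0.08 to 0.31). In F3 they were 13.1 to 17.7 CPM (median 16.3) and 12.9 to 22.4 (median 15.8), also 0.11 (-0.14 to 0.36). Of the 7 sGC animals 3 lay above every control and 1 below all of them. Without the libraries numbered 32 to 36 the F3 value was 0.0412.

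CDKN1A encodes p21, an inhibitor of cyclin-dependent kinases, and is a target of p53 as well as of the glucocorticoid receptor. Its coefficient of variation was at least 11.3% within each of the 6 groups and reached 19.6%. F1 control animals held 9.35 to 15.1 CPM (median 11.8) and sGC animals 11.4, 8.43, 10.7, 7.24 and 11.3 CPM, all 5 of them below the control mean and 2 below every control. Its F1 log2 fold change was -0.25 (95% interval -0.56 to 0.06, adjusted p = 0.348, edgeR). F2 animals held 14.9 to 19.7 CPM in control (median 17.8) and 14.6 to 20.7 after sGC (median 16.6), a log2 fold change of -0.01 (-0.21 to 0.18). F3 animals held 8.61 to 13.7 CPM (median 10.8) and 10.4 to 17.1 (median 12.3), a log2 fold change of 0.24 (-0.04 to 0.51, adjusted p = 0.325, edgeR), with 3 of 7 sGC animals above every control.

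ERRFI1 encodes an inhibitor of the epidermal growth factor receptor. It had 24.1 to 27.8 CPM in F1 control animals (median 26.8) and 25.2, 24.4, 27.9, 27.3 and 27.04 CPM in F1 sGC animals. The F2 ranges were 21.7 to 27.002 CPM (median 24.3) and 21.3 to 30.3 (median 25.3), and the F3 ranges 26.4 to 30.8 (median 29.3) and 26.2 to 30.1 (median 27.8). The log2 fold changes were 0.01, 0.06 and -0.06, with 95% intervals between -0.16 and 0.22. The F1 difference was -0.0149 without the libraries numbered 32 to 36.

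DDIT4 encodes REDD1, which restrains the growth kinase mTORC1 under stress. F1 control animals ranged from 30.8 to 37.3 CPM (median 32.6), and the sGC animals held 31.3, 25.99, 27.3, 34.2 and 25.97 CPM. Among the sGC animals, 3 of 5 lay below every control and 2 within the control range. The F1 means were 33.2 ± 2.65 CPM (SD, n = 6) and 28.9 ± 3.66 CPM (SD, n = 5), at a log2 fold change of -0.20 (95% interval -0.37 to -0.03, adjusted p = 0.186, edgeR). F2 levels were 26.6 to 33.2 CPM in control (median 29.3) and 28.2 to 34.995 after sGC (median 30.8), a log2 fold change of 0.05 (-0.08 to 0.19). F3 levels were 26.6 to 32.5 CPM (median 29.1) and 27.7 to 34.6 (median 31.9), a log2 fold change of 0.09 (-0.03 to 0.21). The control mean was exceeded by 6 of the 7 F3 sGC animals.

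**Figure D2:**
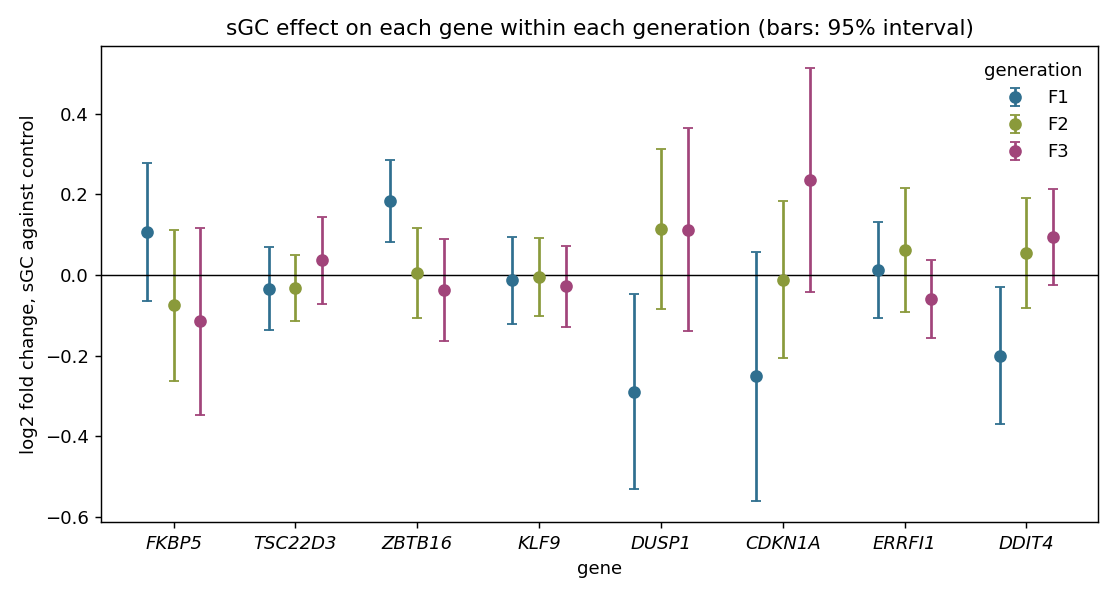
Log2 fold change of sGC against control (y axis) for each of the 8 genes (x axis) in F1, F2 and F3, as points with 95% intervals. The intervals exclude 0 for ZBTB16, DUSP1 and DDIT4 in F1 alone, and no gene passed an adjusted p of 0.05 in edgeR.

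The effect of sGC was next compared between generations, as an interaction over all 36 libraries with 11389 genes tested. None of the 8 genes passed for F2 against F1, where 0.351% of all genes did, or for F3 against F1 and F3 against F2, where 0% did. At an unadjusted p below 0.05, 16.7%, 13.1% and 9.01% of all genes differed in these 3 comparisons, and 3, 4 and 0 of the 8 genes. For F3 against F1 the likelihood ratio test called 57 genes and DESeq2 67, for F3 against F2 both called 0, and neither tool called any of the 8. The largest differences all involved F1, which the first 2 comparisons share. For DUSP1 the log2 fold change was negative in F1 (-0.29) and positive in F2 and F3 (0.11 in each). It was higher by 0.40 in F2 than in F1 (95% interval 0.05 to 0.75, adjusted p = 0.237, edgeR) and by 0.39 in F3 than in F1 (0.05 to 0.73, adjusted p = 0.312, edgeR). CDKN1A gave 0.48 for F3 against F1 (0.09 to 0.87, adjusted p = 0.283, edgeR).

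The differences of DDIT4 and ZBTB16 between generations had opposite signs. The log2 fold change of DDIT4 was -0.20 in F1, 0.05 in F2 and 0.09 in F3. It was higher by 0.25 in F2 (95% interval 0.04 to 0.45) and by 0.29 in F3 than in F1 (0.09 to 0.49, adjusted p = 0.212, edgeR). Without F1 sGC replicate 4, which has the highest DDIT4 level of its group, the difference of F3 from F1 was 0.36 with an adjusted p of 0.0289 in edgeR. For ZBTB16 the difference was -0.18 in F2 (-0.35 to -0.01) and -0.23 in F3 against F1 (-0.40 to -0.06, adjusted p = 0.237, edgeR). Averaged over the generations with equal weight, 0 of the 8 genes passed the test and 0 had an unadjusted p below 0.05, beside 8.53% and 24.7% of all genes, and the averages ran from -0.03 for FKBP5 to 0.05 for ZBTB16.

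Levels of the 8 genes were also set side by side over the 6 groups, on a scale common to all 36 libraries. For 7 of the 8 genes, every group mean lay within 1 pooled SD of the next in order. In these 7 the highest group exceeded the lowest by between 1.07-fold (KLF9) and 1.29-fold (DUSP1). Small steps between neighbours do not show that the levels were flat. The means of ERRFI1 ran from 23.972 CPM in F2 control to 29.178 CPM in F3 control animals, beside a pooled SD of 1.886 CPM. CDKN1A was the exception in the size of its steps alone. Its means were 17.01 ± 1.91 (SD, n = 6) and 16.9 ± 2.33 CPM (SD, n = 6) in F2 control and F2 sGC animals, followed by 13.1 ± 2.48 (SD, n = 7) in F3 sGC, 11.9 ± 2.17 (SD, n = 6) in F1 control, 11.2 ± 2.21 (SD, n = 6) in F3 control and 9.98 ± 1.91 CPM (SD, n = 5) in F1 sGC animals. The step from F2 sGC to F3 sGC animals, 3.76 CPM, was the single one above the pooled SD of 2.20 CPM.

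Among control animals CDKN1A was 0.52 higher in F2 than in F1 on the log2 scale (95% interval 0.26 to 0.79, adjusted p = 0.00118, edgeR) and 0.61 lower in F3 than in F2 (log2 fold change -0.61, adjusted p = 0.000272, edgeR). Among sGC animals it was 0.76 higher in F2 than in F1 (adjusted p = 4.81e-05, edgeR) and differed by -0.37 between F3 and F2 (adjusted p = 0.0183, edgeR). DDIT4 was lower in F2 than in F1 control animals (log2 fold change -0.20, adjusted p = 0.0156, edgeR), and ERRFI1 was higher in F3 than in F2 control animals (0.28, adjusted p = 0.000219, edgeR) and in F3 than in F2 sGC animals (0.16, adjusted p = 0.0283, edgeR, and 0.126 without the libraries numbered 32 to 36). The DDIT4 call was lost without F1 control replicate 1 (adjusted p = 0.0503), that of CDKN1A between F3 and F2 sGC animals without F2 sGC replicate 4 or F3 sGC replicate 3 (0.0682 and 0.0512), and that of ERRFI1 between them without F2 sGC replicate 3 or 6 or F3 sGC replicate 3 (0.0618, 0.118 and 0.0603). ERRFI1 in F2 against F1 control animals stood at the threshold (log2 fold change -0.14, adjusted p = 0.0504, edgeR) and passed it in 27 of 42 alternatives.

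The calls were 2 of 8 genes for control F2 against F1, where 44.8% of all genes passed, and 2 of 8 for control F3 against F2, where 37.8% did. For sGC F2 against F1 it was 1 of 8 beside 23.8%, and for sGC F3 against F2 2 of 8 beside 38.7%. In none of these 4 comparisons was the share of the 8 genes above that of all genes. Between F3 and F1, 0 of 8 genes were called among control animals, where 0.0527% of all genes were, and 0 of 8 among sGC animals, where 1.18% were. At an unadjusted p below 0.05 these were 3 of 8 (TSC22D3, ERRFI1 and DDIT4) beside 7.81%, and 4 of 8 (FKBP5, ZBTB16, DUSP1 and CDKN1A) beside 15.3%. All comparisons with F2 share its animals, and generation, breeding and library number cannot be told apart.

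A wider set of genes of the glucocorticoid response was read in the same fits. Over all genes tested, 2.08%, 0% and 5.04% passed in F1, F2 and F3, and 19.6%, 6.64% and 21.1% had an unadjusted p below 0.05. Of 40 further glucocorticoid-induced genes, 30 were tested in each generation. In F1, 0 of the 30 passed in edgeR (3 at an unadjusted p below 0.05), with 13 higher and 17 lower. The smallest p belonged to NFIL3, a circadian repressor (log2 fold change -0.28, adjusted p = 0.1004), TXNIP, an inhibitor of thioredoxin (-0.24, adjusted p = 0.235), and GLUL, glutamine synthetase (0.24, adjusted p = 0.236, all edgeR). In F2, 0 of 30 passed (2 at an unadjusted p below 0.05), and the smallest p belonged to MAOA, TXNIP and PDK4, with log2 fold changes of -0.11, 0.11 and -0.19 and adjusted p from 0.711 to 0.749 in edgeR. The medians of the list were -0.05, 0.02 and 0.02 in F1, F2 and F3.

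In F3, 1 of the 30 passed, beside 5.04% of all genes tested, and 4 had an unadjusted p below 0.05, beside 21.1%. GLUL, which astrocytes use to turn glutamate into glutamine, was 1467 to 1751 CPM in control (median 1596) and 1673 to 1903 in sGC animals (median 1742), a log2 fold change of 0.15 (adjusted p = 0.0456, edgeR). It passed in 7 of 20 alternatives, its adjusted p was 0.0897 without the libraries numbered 32 to 36, 0.0783 with the replicate number as a block and 0.221 in the fit of all 3 generations together, and leaving out any 1 of 10 libraries (control replicates 2 to 6, sGC replicates 1, 3, 4, 5 and 7) lost the call, with adjusted p up to 0.0921. Markers of astrocytes moved with it: all 9 tested were higher in F3 sGC animals and 3 of them were called (S100B, SLC1A2 and GJB6, log2 fold changes 0.23, 0.24 and 0.18), and their summed level was 9230 to 9986 CPM in control and 10332 to 11596 in sGC animals. Their part in the GLUL difference was not tested.

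Of 12 listed genes that glucocorticoids repress, 7 were tested, and 0 passed in F1, F2 or F3 in edgeR. At an unadjusted p below 0.05 there were 0, 2 and 1, beside 19.6%, 6.64% and 21.1% of all genes. The smallest p in F2 and F3 belonged to CXCL10, an interferon-induced chemokine, with log2 fold changes of 0.75 (adjusted p = 0.678) and 0.73 (adjusted p = 0.208, edgeR), and in F1 to ICAM1, an adhesion molecule (-0.08, adjusted p = 0.287, edgeR). ICAM1 and IL1B followed CXCL10 in F2 (log2 fold changes 0.15 and 0.29), CRH and VCAM1 followed it in F3 (-0.39 and 0.05), and the same pair followed ICAM1 in F1 (-0.30 and 0.16).

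**Figure D3:**
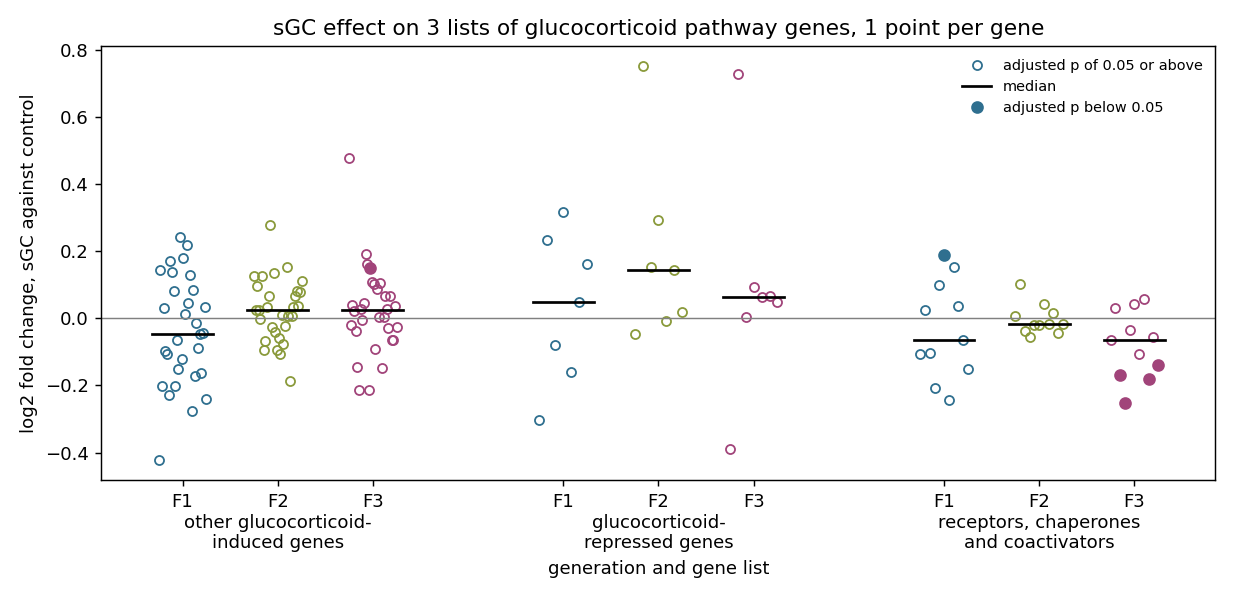
Log2 fold change of sGC against control (y axis) of every tested gene of 3 lists in F1, F2 and F3 (x axis): 30 further induced genes, 7 repressed genes, and 11 receptors, chaperones and coactivators. Filled points passed an adjusted p of 0.05 in edgeR and bars are medians; 1 filled point is in the induced list in F3, 1 in the receptor list in F1 and 4 in the receptor list in F3.

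The receptors, chaperones and coactivators that act before any target gene were read last. Of 13 listed, 11 were tested, and the share of all genes that passed was 2.08% in F1 and 0% in F2. In F1, 1 of the 11 passed and 6 had an unadjusted p below 0.05, beside 19.6% of all genes. The gene that passed, NCOA2, a coactivator, had 56.5 to 63.4 CPM in control animals (median 59.7) and 68.3, 68.4, 70.5, 69.1 and 66.7 CPM in sGC animals. All 5 lay above every control, with a log2 fold change of 0.19 (adjusted p = 0.0256, edgeR), which passed in 8 of 18 alternatives. The call was lost without control replicate 1, 2, 4 or 6 or sGC replicate 2, 3 or 5 (adjusted p up to 0.0632), without the libraries numbered 32 to 36 (0.0519), in the fit of all 3 generations together (0.0524) and with the replicate number as a block (0.102). The glucocorticoid receptor itself, NR3C1, had a log2 fold change of 0.15 in F1 (adjusted p = 0.0860, edgeR), -0.02 in F2 and 0.06 in F3. STIP1, FKBP4, NCOA3 and HSPA8 were lower in F1 sGC animals at an unadjusted p below 0.05. Their log2 fold changes were -0.15, -0.11, -0.24 and -0.21 (adjusted p from 0.125 to 0.227, edgeR). In F2, 0 of 11 passed in edgeR and 0 had an unadjusted p below 0.05, the smallest p being those of H6PD (0.10), HSPA8 (-0.06) and HSP90AA1 (-0.04).

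In F3, 4 of 11 passed, all lower in sGC animals, beside 5.04% of all genes tested. NR3C2, the mineralocorticoid receptor, had 143.2 to 148.6 CPM in control (median 146.2) and 121.4 to 138.4 in sGC animals (median 128.4), with no overlap between the groups. It decreased by 0.18 on the log2 scale (adjusted p = 0.00752, edgeR). HSPA8, a constitutive Hsp70 that loads the receptor complex, had 2060.4 to 2308 CPM (median 2168) and 1756 to 1948 CPM (median 1819.9), again without overlap, and decreased by 0.25 (adjusted p = 0.00195, edgeR). HSP90AA1, the chaperone that holds the receptor ready for hormone, and STIP1, which bridges both chaperones, decreased by 0.17 and 0.14 (adjusted p = 0.00568 and 0.0107, edgeR), also without overlap. The share of all genes without overlap between the groups, in F3 or in F1, is not given here. The 4 calls held without the libraries numbered 32 to 36 (adjusted p from 0.0132 to 0.0376, edgeR), and STIP1 alone was lost when the replicate number entered as a block (adjusted p = 0.0783). General neuronal markers moved with them, 5 of 7 being called lower in F3 sGC animals (SYT1, GAD2, NEFL, SNAP25 and GAD1), with a summed level of 7255 to 7645 CPM in control and 6150 to 7275 in sGC animals. Of 9 hippocampal neuron markers 8 were lower, but 0 were called in edgeR and 0 had an unadjusted p below 0.05, beside 21.1% of all genes. Their median log2 fold change was -0.02. The part of both sets of markers in the result was not tested. HSPA8 and HSP90AA1 have near-identical copies in many mammalian genomes, so that their counts are uncertain.

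How the 8 genes vary together between animals was read after the mean of each of the 6 groups had been removed from the log2 CPM. Over 28 pairs of the 8 genes, Pearson's r ran from -0.25 to 0.46, with 17 positive and 11 negative values. The median size of r was 0.160, beside 0.165 over all pairs of the 11389 genes, so that the typical strength was about that of genes at large. The highest pair was FKBP5 with ZBTB16 (r = 0.46, Spearman's rho = 0.43, permutation p = 0.0176, unadjusted), with r of 0.65 in F1, 0.54 in F2 and 0.35 in F3 and 0.42 without the 2 animals farthest from the median of FKBP5. In a limma fit of all genes on FKBP5 it had an adjusted p of 1.00, and 0 of 28 pairs passed in fits on each member in turn.

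**Figure D4:**
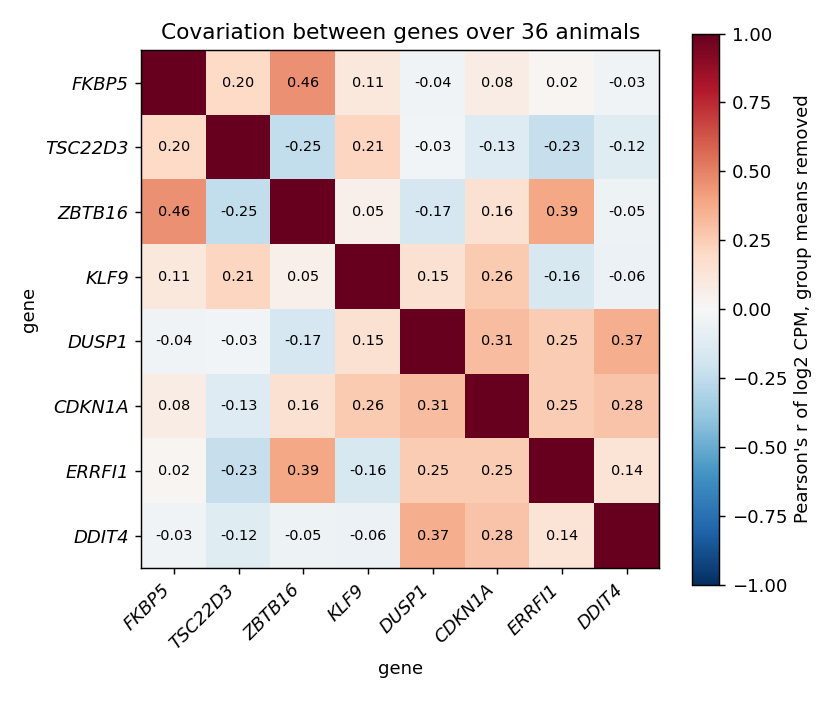
Pearson's r between each pair of the 8 genes (both axes) over 36 animals, after removing group means from log2 CPM, as colour and number. Values lie between -0.25 and 0.46, and FKBP5 with ZBTB16 is the highest.

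The 10 genes outside the list with the highest r to FKBP5 were ARHGAP22 (0.68), IGSF21 (0.67), ARAP3 (0.63), METTL21B, PKD2L1, PARVA, BMX, GINS4, MYBPC1 and NR2F2 (0.60 to 0.56). In limma, 0 of 11388 genes (0%) passed for FKBP5, and 422 had an unadjusted p below 0.05, which is 3.71%. The anchors other than FKBP5 were added after the data had been seen. TSC22D3, CDKN1A and ERRFI1 likewise had no gene past the threshold (1195, 1123 and 1116 at an unadjusted p below 0.05). KLF9 had 160 genes (1.4%), led by PLCL2 (r = 0.77), ZBTB16 had 52 (0.457%), led by AP3D1 (0.73), DUSP1 had 16 (0.14%) and DDIT4 had 7 (0.0615%). The genes nearest to DDIT4 were LIMD1, ACKR3 and KLF10 (r = 0.81, 0.77 and 0.74, adjusted p = 0.00195 in limma for each). With the means of the cell type and region marker lists, 0 of 72 relations of the 8 genes passed and 11 had an unadjusted permutation p below 0.05, with r from -0.50 to 0.47. The smallest p was that of KLF9 with 9 meningeal markers (r = -0.50, rho = -0.54, permutation p = 0.00481, adjusted over 80 relations 0.128, r without the 2 farthest animals -0.53), with r of -0.30, -0.58 and -0.66 within F1, F2 and F3.

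DUSP1 stood in a different place. The genes nearest to it were EGR1 (r = 0.86), FOS (0.85) and JUNB (0.83), followed by NR4A1, EGR2 and TRIB1 (0.79, 0.76 and 0.73). TRIB1, a pseudokinase, apart, these are immediate early genes, transcription factors that neurons switch on within minutes of activity. With the mean of 14 immediate early genes DUSP1 gave r = 0.81 (rho = 0.84, permutation p = 1e-05, the smallest that 1e+05 permutations can give, adjusted over 80 relations 8e-04). The relation was present in each generation, with r of 0.91 in F1, 0.81 in F2 and 0.77 in F3. It was 0.75 without the 2 animals farthest from the median of the list and 0.86 without the libraries numbered 32 to 36. Single genes of the list differed, 8 of 14 passing in limma, with r from 0.06 for EGR4 to 0.86 for EGR1.

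The remaining 7 genes did not pass with that list. ERRFI1 had r = 0.43 (rho = 0.56, permutation p = 0.00328, adjusted 0.128, r without the 2 farthest animals 0.43), DDIT4 0.27, CDKN1A 0.23, KLF9 0.21, TSC22D3 0.01, FKBP5 -0.09 and ZBTB16 -0.12 (adjusted permutation p 0.453 or above for these 6). The r of FKBP5 differed in sign between generations, with 0.57 in F1, -0.10 in F2 and -0.32 in F3. F1 sGC replicate 3, with the highest DUSP1 of its group, was also highest in EGR1 (189 CPM, the others 94.1 to 128.5) and in FOS (12.6 CPM, the others 3.79 to 8.32). In F1, 11 of 14 immediate early genes were lower in sGC animals with 0 called in edgeR and 0 at an unadjusted p below 0.05, so that the list itself was not shown to differ. Over all genes tested in F1 these shares were 2.08% and 19.6%. Its part in the DUSP1 values between groups was not tested.

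**Figure D5:**
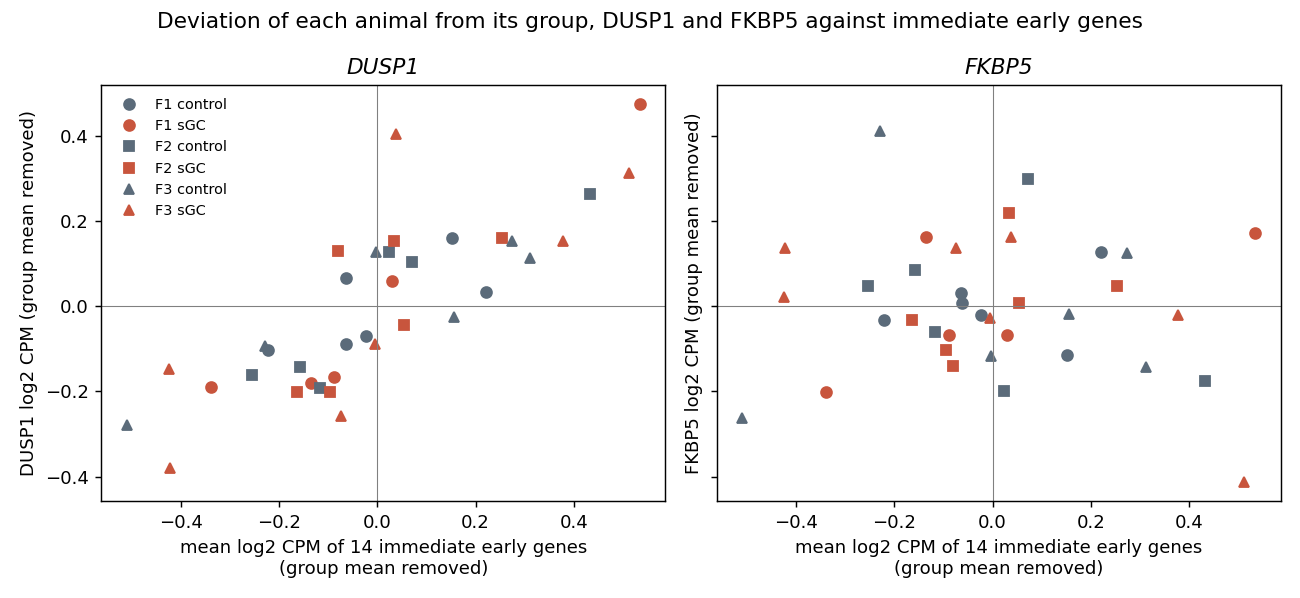
Deviation of each of 36 animals from its group mean in log2 CPM, for DUSP1 (left, y axis) and FKBP5 (right, y axis) against the mean of 14 immediate early genes (x axis), with shape for generation and colour for treatment. DUSP1 is higher where the list is higher (r = 0.81). For FKBP5 r is -0.09 over all animals, and 0.57, -0.10 and -0.32 within F1, F2 and F3.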

How the data were processed

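RNA-seq libraries of right hippocampus from 36 juvenile female guinea pigs on postnatal day 40 were analysed, grouped by generation and F0 treatment from the sample labels. The submitters' processing notes name TopHat2 and edgeR, in a list that also covers the tools for the bisulfite libraries. Trimmomatic 0.32 and R 3.2.3 are in that list too, and the paper names both for the methylation data. For the RNA-seq comparison the paper names edgeR. The genome build and annotation behind the RNA-seq counts are not given in the sources used here. The authors deposited 1 table per generation of raw read counts per gene symbol, which are the values used here. The library kit does not mark strand, so overlapping and antisense genes cannot be told apart. The tables also hold the fold changes and p-values of the authors' own comparisons, and the methylation tables hold nothing else; none of these was used. In the count tables, 0 value columns were left unmapped.

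Per generation, genes were filtered (filterByExpr), scaled (TMM) and tested with edgeR's quasi-likelihood test (edgeR 4.0.16, R 4.3.3), with Benjamini-Hochberg adjustment over all genes tested and a threshold of 0.05. Interactions, the mean effect and contrasts between generations came from 1 fit over all 36 libraries. Covariation used limma 3.58.1 on log2 CPM (prior count 2) with group terms, and Pearson and Spearman correlations of group-centred values with 1e+05 permutations within groups. Group-centred correlations with lists were 80 relations, adjusted together. Single genes were also compared by exact permutation of the animals. The quasi-likelihood test per generation, an interaction contrast and the limma covariation fit were tested on simulated data. The remaining routines were not.

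Alternatives were the likelihood ratio test, DESeq2 1.42.0, RLE size factors, no filter, the replicate number as a block, all generations in 1 fit, omission of the libraries numbered 32 to 36, and omission of each replicate. Within groups, 91 pairs of libraries differed by 2.15 to 29.6 times the sampling variance, so that every library was counted as 1 sample. The named genes are the listed targets, the genes of each further list that were called in a generation or, where none was, the 3 with the smallest p, and the 10 genes nearest to FKBP5. NR3C1, cell type markers, immediate early genes, TTR and GADD45B were named outside this rule. Neighbours of the remaining targets, and contrasts between generations other than those of control animals against F1, were chosen after their values were seen. The 10 targets and all lists were chosen with earlier results of these data known. Precision is limited by 107 to 2756 reads per target and library and by 5 to 7 animals per group.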

Additional observations from a re-analysis of the deposited data

Results flagged for a closer look

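Of 48 groups of animals (8 genes in 6 groups), 2 held 1 animal whose distance to the nearest other was large against the range of its group by Dixon's criterion, which chance alone meets in about 1 in 20 groups. FKBP5 in F3 sGC replicate 4 was 7.952 CPM, whereas the other 6 animals of the group held 10.45 to 12.04 CPM, and without it the F3 log2 fold change was -0.0548 (adjusted p = 0.818, edgeR) in place of -0.11. TSC22D3 in F2 sGC replicate 5 was 82.04 CPM, and the remaining animals of that group held 91.72 to 94.99 CPM.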

How the results depend on the processing

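The F1 count of target genes called was 1 with the likelihood ratio test and with DESeq2 (ZBTB16) in place of 0, and over omissions of single replicates it was 0 to 1. All genes called in F1 numbered 606 and 658 with these tools, against 237, and DESeq2 called 944 in F3, against 573. Among the 30 further induced genes, both tools called 2 in F3 (GLUL and GADD45B) in place of 1 (GLUL), the fit of all 3 generations together called 0 in F3 and 1 in F1 (GLUL), the fit without the libraries numbered 32 to 36 called 0 in F3, and single omissions gave 0 to 1 (GLUL or GADD45B). For control F2 against F1, single omissions gave 1 to 3 target genes called (2 with all libraries), and for the sGC effect in F3 against F1 0 to 1. Differences near 0 turned sign without the libraries numbered 32 to 36: KLF9 was 0.0561 in F1 and 0.0013 in F2, ERRFI1 -0.0149 in F1 and CDKN1A 0.0191 in F2. Over single omissions KLF9 ran from -0.0428 to 0.0230 in F1 and from -0.0255 to 0.0269 in F2, ERRFI1 from -0.0109 to 0.0392 in F1, CDKN1A from -0.0738 to 0.0313 and ZBTB16 from -0.0305 to 0.0301 in F2. The cause was not tested. Animals with the same replicate number deviated together in few of 17 pairs (r from -0.29 to 0.29, 3 above 0.1, 4 matching best with their own number). This showed no general pairing by number, but such a check cannot exclude one. With the replicate number as a block, 0 target genes were called in F1, F2 and F3 and 3 for control F2 against F1 (2 without), and 1 further induced gene in F3, which was GADD45B (log2 fold change 0.18, adjusted p = 0.0472, edgeR) and not GLUL (adjusted p = 0.0783). Low counts limit FKBP5, CDKN1A and DUSP1 most.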
